A study of Mus musculus with 8 samples.

Results

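The broad H3K9me3 peaks of the mouse colon crypt were taken as every peak at least 10 kb wide, from first to last base, in the deposited table of all peaks. This gave 286 of 53761 peaks, or 0.532% of the peaks, which together covered 5764 kb and held 7.37% of all bases under peaks. Width alone chose them. Peaks had been called on the KO and WT libraries together, so reads of both genotypes set the widths. The measurement was H3K9me3 ChIP-seq on whole crypt isolates of colon, with 3 ChIP libraries from Smarcad1-KO and 3 from WT animals. Each genotype also had a single input library, which is chromatin sequenced without immunoprecipitation. All mice were C57BL/6, and the study's methods give them as males. The sample records give the knockout as a Vil-Cre mediated KO of Smarcad1 and the controls as wildtype. Per the methods, the KO animals carried Smarcad1 fl/fl of 1 targeted mouse line, CE6, and a Vil1-cre transgene, in which villin regulatory sequence drives Cre in the intestinal epithelium. Ages of these mice are not given in the sources used here, nor whether the WT animals carried a floxed allele. The libraries of a genotype are numbered replicates, and where they do not come from separate animals the p-values measure only the spread between these libraries, which may be technical. Crypt isolates hold several cell types, so a lower level of the mark per cell and fewer cells that carry it cannot be told apart.

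H3K9me3 is trimethylation of lysine 9 of histone H3, a mark of repressed chromatin that is read by HP1 proteins and written by enzymes such as SETDB1 and SUV39H1. It is known for covering silenced repeats, retroviral sequence and, as wide domains, the clustered genes of the KRAB zinc finger family, whose 3′ coding exons are themselves long arrays of repeated finger units. Smarcad1 is an ATP-dependent chromatin remodeller that has been linked to the maintenance of this heterochromatin through replication. Villin-driven Cre removes the floxed exons of Smarcad1 in the epithelial cells of the gut.

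Sequences of 3 kinds are shown because the results turn on them. The first kind is the finger array of zinc finger genes, the most frequent named gene group among the broad peaks. Capitals mark the C2H2 finger-linker motif, a string of 17 bases searched on both strands, which codes for the conserved stretch between neighbouring fingers and allows any base at the places where those codons vary. In each of the 3 widest zinc finger peaks with a match, the 300-base window with the most matches is given 5′ to 3′ on the strand that holds them (GRCm38, sequence from the RefSeq FASTA of GRCm38.p6). All 3 windows lie wholly in coding exon.

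Zfp942, chr17:21928564-21928863 (minus strand): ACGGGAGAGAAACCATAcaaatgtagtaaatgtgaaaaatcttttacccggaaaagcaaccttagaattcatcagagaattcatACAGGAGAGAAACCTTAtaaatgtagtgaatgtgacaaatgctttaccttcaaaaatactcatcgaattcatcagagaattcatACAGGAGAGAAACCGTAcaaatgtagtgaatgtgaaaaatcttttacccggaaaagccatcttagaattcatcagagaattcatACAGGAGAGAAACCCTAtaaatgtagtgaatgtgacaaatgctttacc
Zfp382, chr7:30134219-30134518 (plus strand): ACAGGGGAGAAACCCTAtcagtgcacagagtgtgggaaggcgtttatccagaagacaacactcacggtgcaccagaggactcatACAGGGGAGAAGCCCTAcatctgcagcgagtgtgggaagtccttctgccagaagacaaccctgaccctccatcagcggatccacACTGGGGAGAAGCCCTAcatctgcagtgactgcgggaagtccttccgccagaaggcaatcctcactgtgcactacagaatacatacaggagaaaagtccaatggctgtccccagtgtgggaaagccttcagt
Zfp943, chr17:21992541-21992840 (plus strand): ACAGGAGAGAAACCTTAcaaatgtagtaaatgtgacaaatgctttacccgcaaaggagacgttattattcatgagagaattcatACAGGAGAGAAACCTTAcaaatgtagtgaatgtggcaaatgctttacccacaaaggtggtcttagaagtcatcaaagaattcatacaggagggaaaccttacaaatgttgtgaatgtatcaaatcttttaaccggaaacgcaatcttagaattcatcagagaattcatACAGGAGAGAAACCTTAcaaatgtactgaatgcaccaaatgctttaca

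Within the windows the motif recurred at 84 bases or at a multiple of it. Over 277 broad peaks, 547 of 887 gaps between successive matches on a strand were exactly 84 bases and 822 were a multiple of 84, so the repeated unit is visible across the peaks. The second kind is sequence from the middle of broad peaks that gained H3K9me3 in the knockout, with CpG in capitals. These are the central 200 bases, on the plus strand, of 4 of the peaks with the largest increases, at 4 genes. None holds the linker motif, 3 lie in introns and the Bach1 window lies in coding exon.

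Fat1, chr8:44977701-44977900 (plus strand): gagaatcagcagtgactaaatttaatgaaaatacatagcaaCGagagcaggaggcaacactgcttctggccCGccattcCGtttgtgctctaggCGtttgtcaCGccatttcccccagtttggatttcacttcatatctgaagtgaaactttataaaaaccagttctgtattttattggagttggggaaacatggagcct
Bach1, chr16:87718851-87719050 (plus strand): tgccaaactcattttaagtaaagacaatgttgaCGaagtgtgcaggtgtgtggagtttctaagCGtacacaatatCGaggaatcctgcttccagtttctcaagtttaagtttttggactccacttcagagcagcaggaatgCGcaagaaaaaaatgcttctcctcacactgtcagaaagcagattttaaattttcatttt
Wwox, chr8:114790401-114790600 (plus strand): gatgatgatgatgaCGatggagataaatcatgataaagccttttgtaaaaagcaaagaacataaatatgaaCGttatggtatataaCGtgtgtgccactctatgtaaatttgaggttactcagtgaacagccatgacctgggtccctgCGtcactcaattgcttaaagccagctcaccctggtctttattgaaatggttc
Grip1, chr10:119811276-119811475 (plus strand): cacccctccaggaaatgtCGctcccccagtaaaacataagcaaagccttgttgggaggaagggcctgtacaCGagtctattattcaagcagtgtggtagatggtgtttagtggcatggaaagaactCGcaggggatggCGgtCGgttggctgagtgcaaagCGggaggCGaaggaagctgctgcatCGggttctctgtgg

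The third is the 242 bases before the start of Vil1, with CpG in capitals, since the broad peak with the largest change covers this start.

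Vil1, chr1:74409134-74409375 (plus strand): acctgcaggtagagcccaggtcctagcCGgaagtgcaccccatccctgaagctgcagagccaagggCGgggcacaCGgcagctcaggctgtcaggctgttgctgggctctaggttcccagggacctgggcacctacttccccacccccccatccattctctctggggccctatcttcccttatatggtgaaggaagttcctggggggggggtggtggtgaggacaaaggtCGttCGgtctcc

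Broad peaks ran from 10.05 to 233.1 kb, with a median of 15.1 kb, against a median of 1.05 kb for the other 53475 peaks. Of the 286, 84 reached 20 kb, 36 reached 30 kb, 8 reached 50 kb and 2 reached 100 kb. They were spread unevenly over the chromosomes. Chromosome 4 held 48, chromosome 17 held 39, chromosome 7 held 38, chromosome 13 held 33 and chromosome 10 held 28. These 5 chromosomes had 65.0% of the broad peaks and 27.3% of all peaks. Chromosomes 6 and 14 had none, with 2847 and 3529 peaks of any width, and chromosome 1 had 5 broad peaks among 5493.

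**Figure D1:**
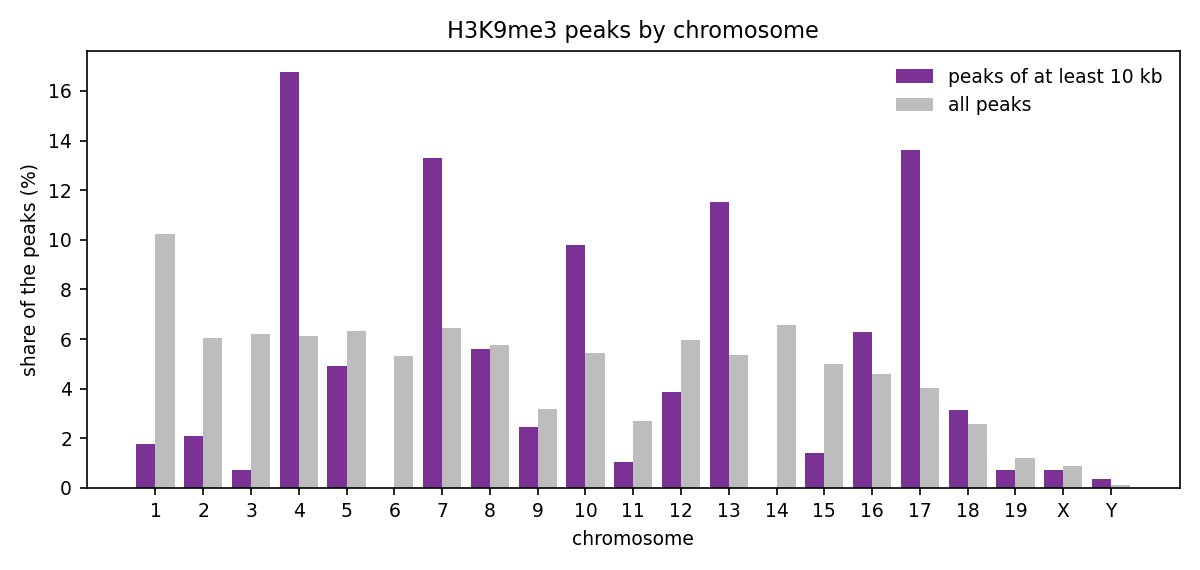
Share of the 286 broad peaks (purple) and of all 53761 peaks (grey) on each chromosome, in percent. Chromosomes 4, 17, 7, 13 and 10 hold 65.0% of the broad peaks and 27.3% of all peaks, and chromosomes 6 and 14 hold no broad peak.

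Many broad peaks were neighbours. Joining those at most 100 kb apart gave 139 loci, of which 78 held a single broad peak, while 16 loci held 4 or more and 109 broad peaks in all. The locus with the most was chr4:152789701-153780450, with 26 broad peaks over 991 kb. It includes Ajap1, which encodes an adherens junction associated protein, and 21 of its 26 peaks had no gene within 5 kb. Next came a zinc finger cluster at chr13:67486501-67750800 with 8 broad peaks, all 8 with the linker motif, and chr4:147415951-147614400, also with 8. The locus at chr16:89781001-90141000 held 7, of which 5 lie at Tiam1, the gene of a Rac exchange factor. Neighbouring peaks of a locus share a domain, and some touch end to end, so they are not independent regions.

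By the closest gene within 5 kb that the authors assigned, 202 of the 286 (70.6%) lay at a gene and 195 of them overlapped it, whereas 71.1% of the narrower peaks had no gene that close. In the GENCODE models, introns made up 59.5% and exons 12.1% of the bases of broad peaks, against 29.8% and 3.88% of narrower ones. Zinc finger symbols named the closest gene of 63 broad peaks at 59 genes. A further 27 lay at predicted (Gm) genes, 22 at Rik-named transcripts, 4 at protocadherins, which are cell adhesion genes in clusters, 1 at a vomeronasal receptor, 0 at olfactory receptors and 85 at other genes. Newer GENCODE names added to the zinc finger count, since 16 more members under older symbols carry a zinc finger name there, 11 of them with the linker motif.

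At zinc finger genes the broad peaks sat over the finger-coding end. Of the 62 with a GENCODE match, 50 covered the 3′ end of the gene and 0 covered its start, and the median peak spanned 52.8% of the gene. The linker motif was found in 54 of the 63, and in 117 of all 286 broad peaks. Cut into tiles of 1 kb, 4.37% of broad-peak tiles held it, against 0.731% of the tiles of narrower peaks and 0.0606% of all tiles of the genome. Peaks with the motif and peaks without it differed in base makeup. The 117 with it had 6.204 CpG per kb and 38.6% soft-masked (repeat) bases, and the 169 without it had 13.7 CpG per kb and 23.8%. A match is a string of letters in the peak and says nothing about a bound factor.

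In WT crypts the broad peaks held more mark per length than the narrower ones. ChIP levels are given here as matched reads per kb, which are the deposited log2 read counts, after the authors' matching of the 6 libraries, on a linear scale and divided by the width. The median over broad peaks was 23.5, 23.3 and 23.5 in WT replicates 1 to 3, while narrower peaks had 16.04, 15.96 and 15.95. In KO libraries 1 to 3 the broad-peak medians were 23.2, 23.7 and 22.6, which overlap the WT libraries. Over the WT input, the median WT value was higher by 1.45 on the log2 scale in broad peaks and by 0.79 in narrower ones, with input at 8.59 and 9.17 reads per kb. The matched scale and the unscaled input have different totals, so this difference orders peaks and is no absolute enrichment. Width was set by the same reads as the level.

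The widest broad peak lay in Arl15, which encodes an Arf-like GTPase, at chr13:113807101-114040200 (233.1 kb, 99.8% intron). Its log2 value was 12.92 in WT replicates 1, 2 and 3 and in KO replicates 1 and 3, and 13.19 in KO replicate 2. A second Arl15 peak of 121.4 kb followed, and together the pair covered 94.9% of the gene. Next in width were Tiam1 (97.2 kb), Apbb2 (89.4 kb), an adaptor of the amyloid precursor protein, and Tcf4 (82.2 kb), a basic helix-loop-helix transcription factor. All 5 widest peaks lie mostly in introns of long genes, and the Tcf4 peak was the 1 of the 5 called changed.

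By the authors' closest gene, the highest WT levels per kb were not at genes with a zinc finger symbol. A peak without a gene within 5 kb at chr12:20221651-20234850 had 79.3, 79.3 and 76.5 matched reads per kb in WT and 73.2, 70.4 and 77.4 in KO. The next was chr18:3004051-3016500, close to the start of the chromosome sequence, with 66.2, 62.0 and 63.1 in WT and 63.1, 46.7 and 63.1 in KO. The other 3 of the 5 highest were chr4:147415951-147435300 and a pair of peaks at C130026I21Rik on chromosome 1, with group means of 56.4, 47.8 and 46.9 in WT. The peak on chromosome 4 is in a locus where 3 of 8 broad peaks held the linker motif. None of the 5 highest peaks was called changed, and their log2 fold changes were -0.30 to -0.09. Zinc finger peaks were more uniform, with WT levels from 14.4 to 42.9 per kb and a median of 26.8.

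At the width limit, the peaks just inside it were 10.05 kb wide, at 3300002I08Rik (WT 19.8 matched reads per kb, KO 20.7) and at chr4:152972551-152982600 (WT 16.1, KO 14.9). Just outside, at 9.9 kb, were chr4:152764951-152774850 (WT 18.5, KO 16.3) and chr5:126595801-126605700 (WT 16.5, KO 14.7). Other broad peaks were also 10.05 kb wide, among them a called decrease, and the pair given comes first by chromosome and start. The limit cuts through a continuous range of widths.

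Most broad peaks were not called changed in the Smarcad1 knockout, and the changes that passed were increases inside long genes more often than losses. Of the 286, 41 (14.3%) passed a Benjamini-Hochberg adjusted p of 0.05 in limma's moderated test, fitted over all 53761 peaks, where 1.66% passed. Increases were 32 (all peaks: 0.796%) and decreases 9 (all peaks: 0.863%). The 3 KO values lay wholly above or wholly below the 3 WT values at 105 broad peaks, or 36.7%, against 15.6% of all peaks. Broad peaks hold many reads, and their fold changes had a median SE of 0.10 on the log2 scale against 0.30 in narrower peaks, so a smaller difference passes there and the shares are not comparable as rates of change. At a log2 fold change of 1 or more stood 14 broad peaks (4.90%; narrower 1.04%), and at -1 or less stood 0 (narrower 0.914%). The median log2 fold change of all 286 was -0.08, beside 0.00 over all peaks, and 184 of the 286 lay below 0. Without KO replicate 3 there were 27 decreases beside 36 increases, and without KO replicate 2 there were 14 beside 30. With a variance prior that does not follow the level, 8 broad peaks (2.80%) were called, all increased, against 127 of all peaks (0.236%). With the input of the genotype subtracted, 21 broad peaks (7.34%) were called against 15873 of all peaks (29.5%), so the share of broad peaks was then below that of all peaks. That subtraction moves a whole group by a single input library, whose own error is not in the test.

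**Figure D2:**
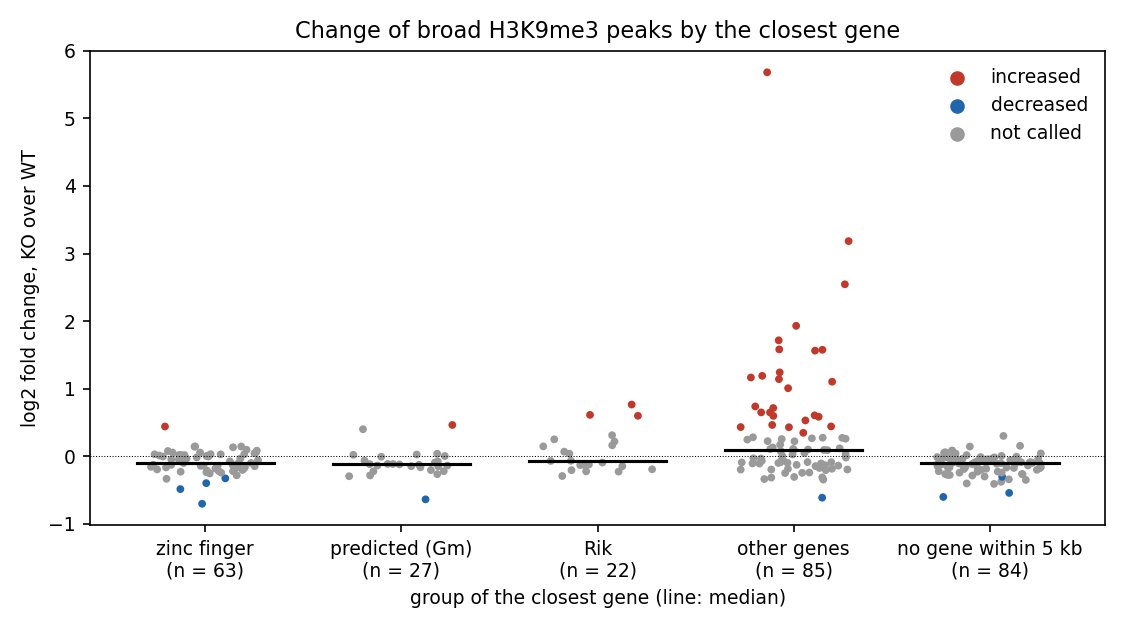
Log2 fold change (KO over WT) of each broad peak by the group of its closest gene, with a line at the group's median, where red marks increased, blue decreased and grey not called peaks. Of the 32 increases 27 are at other genes, and the 63 zinc finger peaks have 1 increase and 4 decreases around a median of -0.10. The median over all 286 broad peaks is -0.08.

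The groups of closest genes differed in what they held. Other genes had 27 increases and 1 decrease among 85 peaks, with a median log2 fold change of 0.09. Zinc finger peaks had 1 increase and 4 decreases among 63, a median of -0.10, and 41 of the 63 below 0. Over all 286 broad peaks the median was -0.08 and 64.3% lay below 0, against 49.7% of all peaks. The zinc finger median and share below 0 were thus near those of all broad peaks. Among all peaks 0.796% were increases and 0.863% decreases. The Zfp942, Zfp382 and Zfp943 peaks whose finger arrays are shown were not called, with log2 fold changes of -0.14, -0.13 and -0.06. The 84 peaks with no gene within 5 kb had 0 increases and 3 decreases, with a median of -0.11. Predicted genes had 1 of each among 27, Rik-named transcripts 3 increases among 22, and the 4 protocadherin peaks and the vomeronasal receptor peak were not called. No p was computed for a group, since peaks of a locus are not replicates.

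The largest increase was at Vil1, which encodes villin, an actin-bundling protein of the epithelial brush border and the source of the promoter in the Cre transgene. The peak, chr1:74401501-74415600, covers the start of the gene, whose upstream sequence is shown above, and 43.1% of it is intron and 1.04% exon. In WT replicates 1 to 3 the levels were 4.01, 2.15 and 2.34 matched reads per kb, and in KO replicates 1 to 3 they were 163, 130 and 130. Every KO library was far above every WT library, a 51.4-fold difference (log2 5.68 ± 0.14 SE, limma adjusted p = 1.2e-35). The input moved with it. The KO input held 1111 reads there and the WT input 133, a ratio of 8.35 (95% exact interval 6.97 to 10.1, counting error only), while the median ratio over broad peaks was 0.959. With the input subtracted the log2 difference was 2.62. That fit still called the peak increased, but the error of the 1 input per genotype is not in its test. Reads from transgene copies of villin sequence and reads from the Vil1 locus itself cannot be told apart.

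Fat1 and Bach1 had the next largest increases, from WT levels among the lowest of all broad peaks. Fat1 encodes a giant atypical cadherin. Its peak at chr8:44972701-44982900, wholly intronic, had 4.99, 1.86 and 2.89 matched reads per kb in WT and 30.5, 33.8 and 19.5 in KO. The groups did not overlap, and H3K9me3 was 9.08-fold higher in KO (log2 3.18 ± 0.20 SE, limma adjusted p = 2.1e-17). Bach1 encodes a haem-responsive transcriptional repressor. Its peak at chr16:87713401-87724500 lies inside the gene, with 19.4% of its bases in exons, and had 6.73, 2.73 and 3.45 in WT and 25.8, 24.3 and 20.1 in KO. It was 5.83-fold higher in KO (log2 2.54 ± 0.18 SE, limma adjusted p = 2.0e-15). At both peaks WT replicate 1 was the highest of the WT libraries, as it was at 19 of the 32 increased peaks and at 128 of all 286. Leaving it out gave 36 calls, 30 of them increases.

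Tcf4 held the widest single peak that increased, of 82.2 kb. Its broad peaks at chr18:69420601-69502800 and chr18:69504901-69532500 lie wholly inside the gene and together cover 31.8% of it. The wider one had 10.5, 9.26 and 10.5 matched reads per kb in WT and 30.2, 30.2 and 28.8 in KO. It rose 2.95-fold (log2 1.56 ± 0.08 SE, limma adjusted p = 1.2e-20). The other had 8.92, 7.54 and 7.81 in WT and 32.1, 32.8 and 27.6 in KO. It rose 3.81-fold (log2 1.93 ± 0.10 SE, limma adjusted p = 1.6e-20). Of the 19 narrower peaks along Tcf4, 17 were also called increased and 0 decreased.

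Grip1, which encodes a scaffold protein that binds glutamate receptors, held 10 broad peaks and all 10 were called increased. They cover 33.4% of the 633 kb gene, and several adjoin, so they are pieces of few domains rather than 10 separate events. Their levels ran from 7.43 to 25.5 matched reads per kb in WT and from 20.6 to 39.97 in KO, and their log2 fold changes from 0.34 to 1.58. The largest, at chr10:119805301-119817450, had 8.89, 6.83 and 6.75 in WT and 19.5, 26.0 and 21.6 in KO (log2 1.58 ± 0.13 SE, limma adjusted p = 6.0e-13). The KO and WT libraries did not overlap at any of the 10. The 4 broad peaks nearest the start of the gene had 14.98 to 19.6 per kb in WT and log2 fold changes of 0.34 to 0.58, and the smallest of these calls was lost without WT replicate 1 or 2 or KO replicate 1. With the input subtracted the calls of all 4 were lost. With a variance prior that does not follow the level, only the largest increase of the 10 kept its call (limma adjusted p = 0.034). At 2 more peaks, chr10:119848051-119859900 and chr10:119601601-119614350, the log2 fold changes were 1.16 and 1.14. Of the 62 narrower peaks at Grip1, 53 were called increased and 0 decreased. Without Grip1, 22 increased broad peaks remain, with a median log2 fold change of 0.75.

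**Figure D3:**
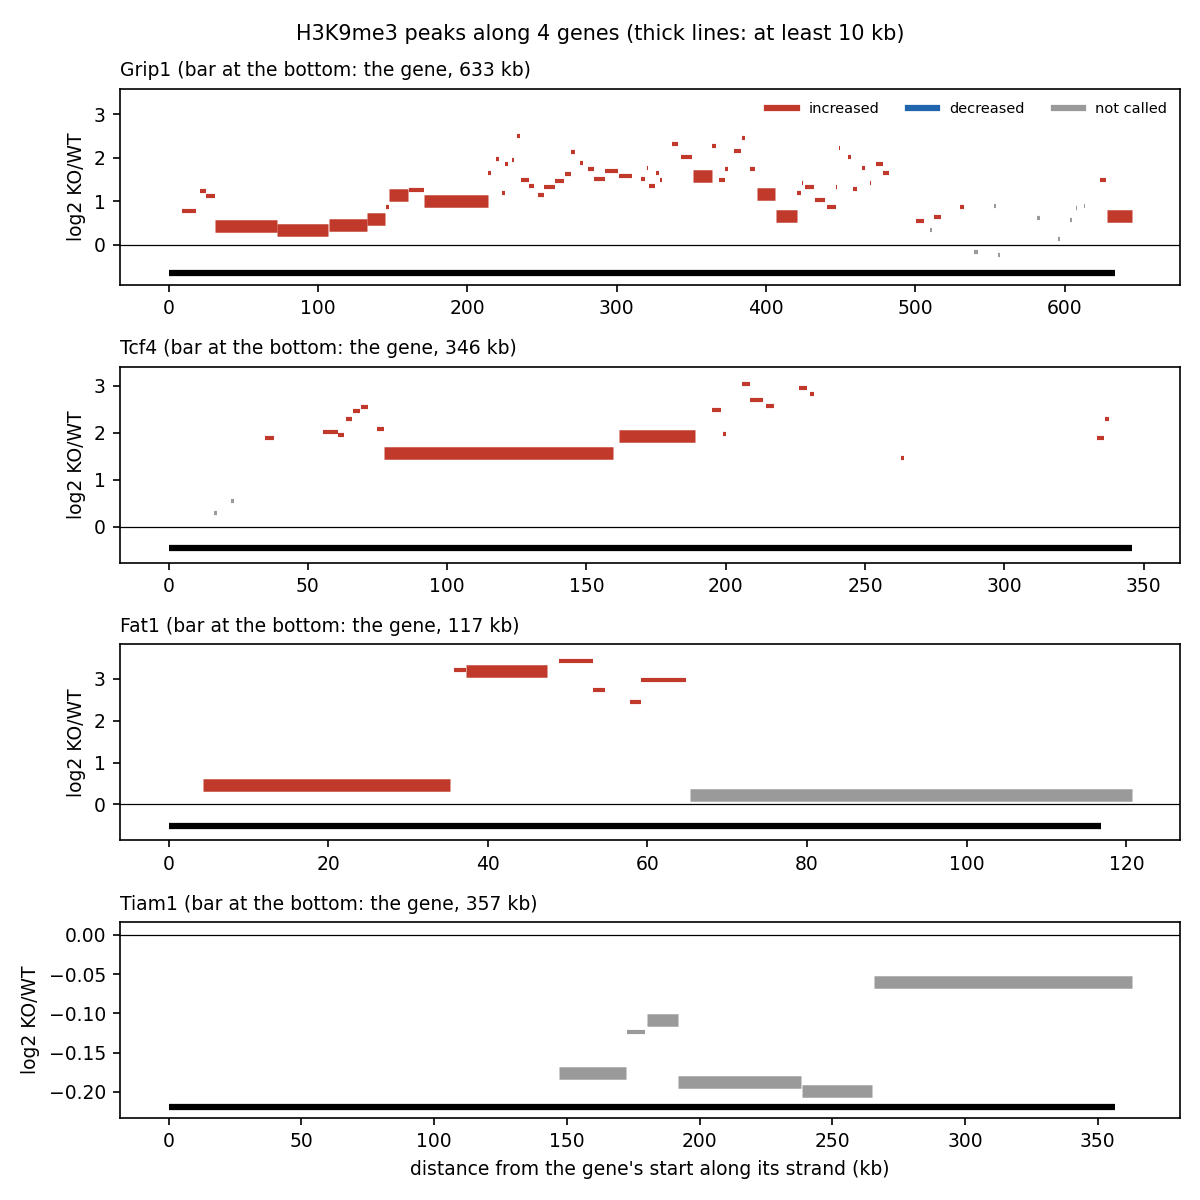
Log2 fold change (KO over WT) of each H3K9me3 peak along Grip1, Tcf4, Fat1 and Tiam1, by distance from the start of the gene along its strand in kb, where thick lines are broad peaks, thin lines narrower ones and the black bar the gene. All 10 broad Grip1 peaks, both Tcf4 peaks and 2 of 3 Fat1 peaks are called increased, and none of the 5 Tiam1 peaks is called.

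In 4 further genes a single broad peak rose at least 2-fold without overlap between the groups. Wwox encodes an oxidoreductase with WW domains at a common fragile site, and its peak at chr8:114785401-114795600 had 9.35, 6.25 and 6.40 matched reads per kb in WT and 24.98, 28.1 and 18.9 in KO (log2 1.71 ± 0.15 SE, limma adjusted p = 1.2e-12). Cdyl2 encodes a chromodomain protein, and its intronic peak at chr8:116626201-116636850 had 8.58, 6.26 and 5.88 in WT and 19.6, 23.3 and 18.3 in KO (log2 1.57 ± 0.14 SE, limma adjusted p = 5.4e-12). In both, all KO libraries lay above all WT libraries. Trio, the gene of a guanine nucleotide exchange factor, had 9.66, 7.76 and 9.57 in WT and 22.4, 21.7 and 17.5 in KO at chr15:27950551-27968850 (log2 1.19 ± 0.12 SE, limma adjusted p = 1.0e-10). Wwc2, of the WW and C2 domain family, had 11.8, 13.3 and 12.3 in WT and 27.3, 29.0 and 24.1 in KO at chr8:47898601-47910300 (log2 1.10 ± 0.12 SE, limma adjusted p = 7.0e-10). These peaks lie inside their genes, with 96.6 to 100% of their bases in introns. With a variance prior that does not follow the level, the calls of Wwox and Cdyl2 held (limma adjusted p = 0.040 and 0.041). Those of Trio and Wwc2 were then lost (limma adjusted p = 0.11 for both).

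**Figure D4:**
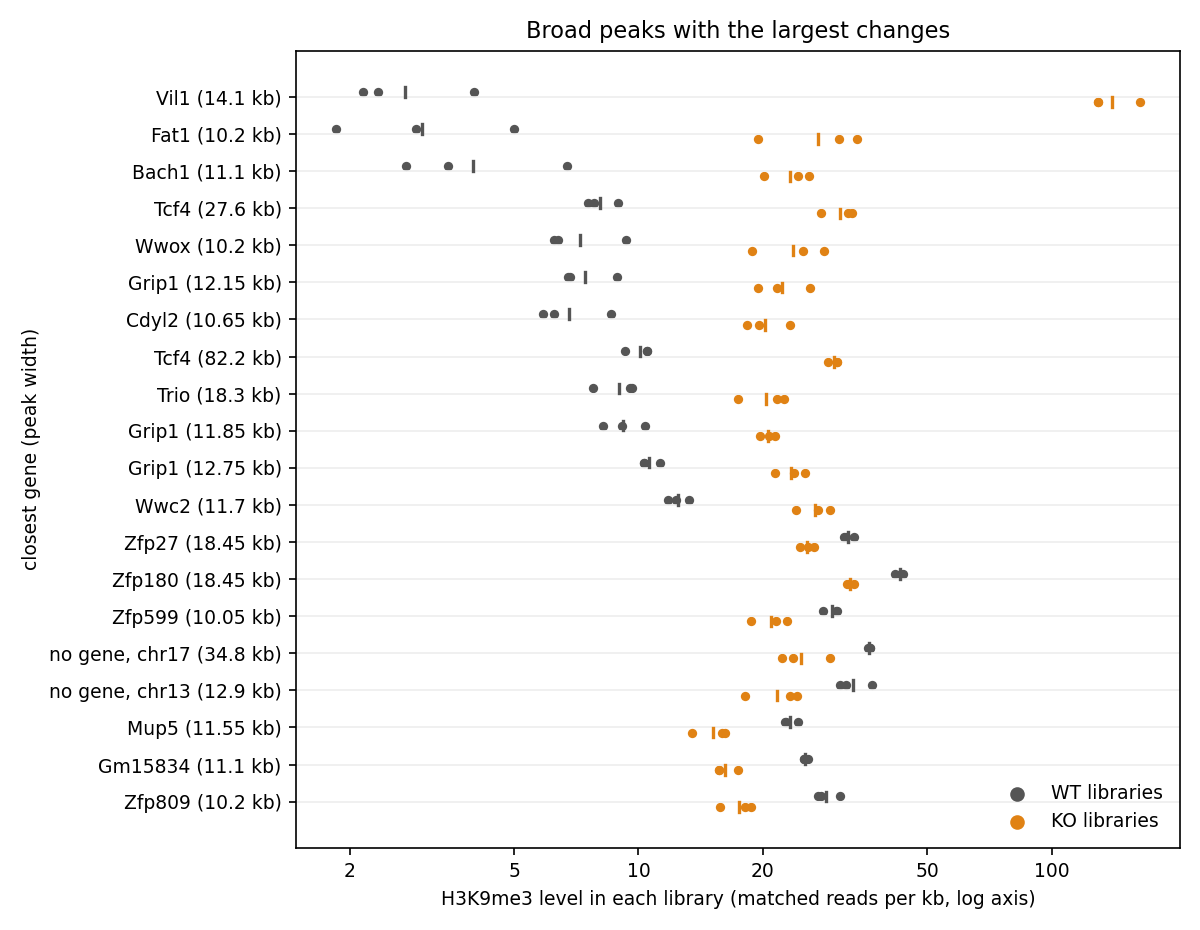
H3K9me3 level of each library in matched reads per kb (log axis) at the 12 largest increases and 8 largest decreases among broad peaks whose KO (orange) and WT (grey) libraries do not overlap, with a tick at the group's geometric mean. The increased peaks reach 20.3 to 140 in KO from 2.72 to 12.4 in WT, and the decreased peaks fall to 15.2 to 32.5 from 23.2 to 42.9.

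The remaining increases were smaller, with log2 fold changes of up to 0.76, apart from AC151712.4, whose groups overlapped, and those outside Snx18 and Fat1 are named here after their values were seen. Snx18, a sorting nexin gene, had 23.6, 18.97 and 25.5 matched reads per kb in WT and 36.4, 35.3 and 31.2 in KO (log2 0.60, limma adjusted p = 1.4e-05). Of the 5 broad peaks of 1700106N22Rik, a symbol that GENCODE places in the methyltransferase gene Camkmt, 3 rose by log2 0.60 to 0.76. Crybg3 (0.74), Helb (0.60), Dctd (0.53), a first Fat1 peak (0.46), Gm9581 (0.46), an Apbb2 peak (0.43) and Zfp58 (0.44) also passed, as log2 fold changes. Zfp58 was the 1 zinc finger peak that rose, and its call was lost when any of 4 single libraries was left out, namely WT replicate 2 or 3 or KO replicate 1 or 2. Called peaks whose groups overlapped were Ppm1h and AC151712.4. At Ppm1h, a phosphatase gene, WT was 25.8, 14.7 and 13.9 and KO 29.2, 30.8 and 25.8. At AC151712.4 on chromosome Y, WT was 7.98, 57.3 and 24.4 and KO 31.7, 87.5 and 52.9, a wide spread within both groups (log2 1.24 ± 0.28 SE, limma adjusted p = 0.0054), and its call was lost without WT replicate 1 or KO replicate 2. Without WT replicate 2 or KO replicate 1 the calls of the first Fat1 peak, the Apbb2 peak and Gm9581 were also lost, and that of Gm9581 also without WT replicate 3. With a variance prior that does not follow the level, all of these smaller increases lost their calls, as did AC151712.4. At Snx18 the limma adjusted p was then 0.48.

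The 32 increased peaks shared features that the width rule did not use. They lay at 19 genes in 19 loci, all overlapped their gene, and 27 were wholly inside it. Lying at a gene was not particular to broad increases. Of the 396 increases among narrower peaks, 321 were at other genes and 38 had no gene within 5 kb. The median length of the genes of the 32 was 137.7 kb, against 28.2 kb for genes of uncalled broad peaks. Introns made up 92.8% of the bases of the 32, against 55.1% in uncalled broad peaks. The increased broad peaks had 14.8 CpG per kb (uncalled 10.3), 19.4% soft-masked bases (uncalled 30.6%), and the linker motif in 1 of 32 (uncalled 111 of 245). The 85 broad peaks at other genes, which include 27 of the 32, lay nearer to the increased peaks than uncalled ones did. In them introns made up 79.2% of bases, and the median gene length was 100.5 kb. They had 13.7 CpG per kb, 23.1% soft-masked bases and the linker motif in 11 of 85. Uncalled broad peaks include 58 at zinc finger genes and 81 with no gene within 5 kb, so the sets compared differ in gene group. On chromosome 10 were 12 of the 32 increased peaks, of which 10 are Grip1.

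**Figure D5:**
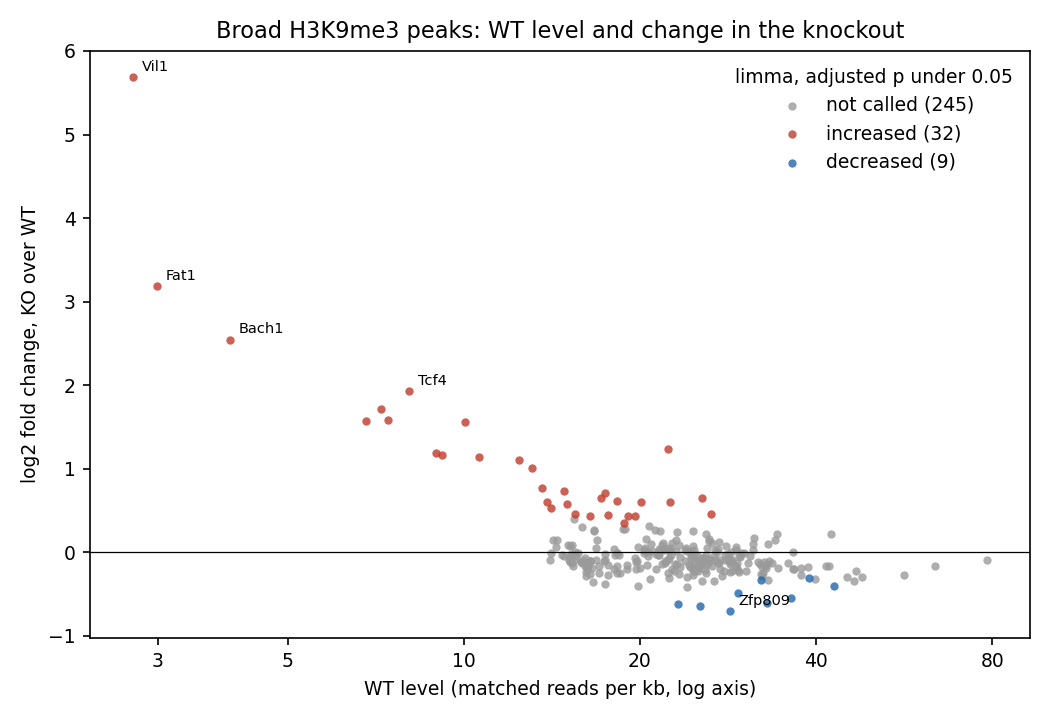
Log2 fold change (KO over WT) against the WT level in matched reads per kb (log axis) for the 286 broad peaks, where red marks the 32 increased, blue the 9 decreased and grey the 245 peaks not called. The 15 broad peaks with the lowest WT level are all increased, and WT values enter both axes.

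WT levels at the increased peaks were low. Their median was 14.5 matched reads per kb in WT and 25.3 in KO, near the 23.9 that uncalled broad peaks had in WT. Below the WT input, on the log2 scale of these files, stood 9 broad peaks, all 9 of them increased, and in KO 0 of the 32 were below the KO input. The 15 broad peaks with the lowest WT levels per kb were all increased. Peaks were called on KO and WT libraries together, so a region with little mark in WT could become a broad peak only through a high level in KO, and the selection fixes this direction. The counts are given as a description.

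The 9 decreased peaks were spread over 8 loci, and no locus held both an increase and a decrease. The largest decrease was at Zfp809, the gene of a KRAB zinc finger protein known for binding the primer binding site of retroviruses. Its peak at chr9:22233451-22243650 had 27.2, 30.7 and 27.7 matched reads per kb in WT and 18.1, 18.7 and 15.7 in KO. No library of a group reached the other, and H3K9me3 fell by 0.71 on the log2 scale (± 0.11 SE, limma adjusted p = 2.8e-05). Gm15834, a predicted transcript, had 25.7, 25.2 and 25.1 in WT and 15.7, 15.7 and 17.4 in KO at chr1:58505551-58516650, and fell by 0.64 (± 0.11 SE, limma adjusted p = 1.2e-04). Mup5, a major urinary protein gene, had 24.3, 22.7 and 22.6 in WT and 16.2, 13.5 and 15.9 in KO at chr4:61820101-61831650, and fell by 0.62 (± 0.11 SE, limma adjusted p = 3.9e-04). All 3 were separated by more than the spread of either group. With a variance prior that does not follow the level, all 3 calls were lost (limma adjusted p = 0.36, 0.41 and 0.44). With the input subtracted, the calls of Gm15834 and Mup5 were also lost.

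Peaks with no gene within 5 kb fell at chr13:12820501-12833400 by 0.61 on the log2 scale (WT 31.8, 30.8 and 36.7 matched reads per kb, KO 23.2, 18.1 and 24.2, limma adjusted p = 2.3e-04). At chr17:17016451-17051250 the fall was 0.55 (WT 36.3, 36.0 and 36.3, KO 23.6, 22.2 and 29.0, limma adjusted p = 3.2e-05), and this peak holds 15 linker matches. The KO input was also low there, with 174 reads against 297 in WT (ratio 0.586, 95% exact interval 0.483 to 0.709). With the input subtracted the log2 difference was 0.23, of the opposite sign. At 3 more zinc finger genes H3K9me3 fell, Zfp599 by 0.49, Zfp180 by 0.40 and Zfp27 by 0.33 (limma adjusted p = 0.0063, 0.0041 and 0.050), and their KO and WT libraries did not overlap. The call of Zfp599 was lost without WT replicate 1 or 3, that of Zfp180 without WT replicate 2, and that of Zfp27 without any WT library or KO replicate 1. With the input subtracted, the log2 differences at Zfp599, Zfp180 and Zfp27 were -0.12, -0.26 and -0.05, and none was called. Named after its value was seen, chr16:89998951-90056550 beside Tiam1 fell by 0.31 (limma adjusted p = 0.018), a call lost without any WT library or KO replicate 1. The linker motif was in 5 of the 9.

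Tiam1 held 5 broad peaks that cover 56.2% of the gene, and none was called changed. Their log2 fold changes were -0.20 to -0.06. At chr16:89905351-89951700, a peak of 46.4 kb, WT had 37.7, 37.7 and 37.7 matched reads per kb and KO 32.3, 34.7 and 32.3 (log2 -0.19 ± 0.08 SE, limma adjusted p = 0.31). The groups did not overlap at 4 of the 5, and the differences at these 4 were 0.11 to 0.20 on the log2 scale. The third Fat1 peak, of 55.4 kb over the end of the gene, had 33.01, 34.97 and 34.97 in WT and 42.8, 42.8 and 34.97 in KO (log2 0.22 ± 0.08 SE, limma adjusted p = 0.20) and was not called.

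Equal values such as these come from the authors' matching, which gives the libraries the same ladder of values by rank. Only 25 values per library reached a log2 of 10, 19 of them in broad peaks in WT replicate 1, and neighbouring steps there had a median of 0.07 and a maximum of 0.91. At 25 broad peaks a WT value equals a KO value in every deposited digit. For the strongest peaks a change of one rank is therefore the smallest difference these values can show.

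Genes of chosen lists were mostly not at broad peaks. Of 27 genes of the H3K9me3 machinery, 5 had a peak of any width and 2 a broad one, Cdyl and Cdyl2, chromodomain proteins of which Cdyl2 rose as given above and Cdyl was not called (log2 0.26). Of 23 imprinted genes, 15 had a peak and 1, the long non-coding RNA gene Airn, a broad peak, which was not called (log2 -0.11). Of 12 genes that mark colon epithelium, Vil1 alone had a broad peak, and of 11 genes of immune, stromal and endothelial cells none did. Smarcad1 had no peak in the table, and the deletion cannot be checked from these files.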

How the data were processed

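H3K9me3 was read from 3 KO and 3 WT ChIP libraries and 1 input library per genotype. The authors trimmed the reads (Trim Galore 0.6.1 in the processing notes), mapped them to GRCm38 with Bowtie2 2.3.2, kept well-mapped reads without duplicates and ran MACS within SeqMonk a single time, with the ChIP libraries pooled and both inputs as background. The methods give paired reads while the sample records give single ones. Deposited ChIP values are on a log2 scale. They are the reads counted in a peak after the authors gave all 6 libraries 1 common distribution. This removes depth and any change shared by most peaks. For the inputs the authors deposited the log2 of whole, unscaled counts. A second deposited table, which holds the authors' edgeR p-values and fold changes of called peaks, was not used. No per-sample column lacked a sample (0).

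KO and WT were compared over all 53761 peaks, on the log2 scale, with limma 3.58.1 in R 4.3.3, two-sided, with genotype as the only factor, no pseudocount, no filter, a variance prior that follows the level and a Benjamini-Hochberg threshold of 0.05. Broad peaks were counted afterwards. The script was tested on simulated data. Values are means of 3 libraries on the log2 scale unless given per library. Read depth of the ChIP libraries is unknown on the matched scale, where the libraries sum to 1351556 to 1351625 matched reads over peaks. Broad peaks held a median of 130.5 WT and 127 KO input reads, and input ratios carry exact Clopper-Pearson intervals at 95%, for counting error only. Genes were placed by GENCODE vM21 models, with older symbols matched by gene identifier (196 of 202 found), and sequence, CpG and soft-masked bases from the GRCm38.p6 RefSeq FASTA. Spacing of the linker motif was counted without chromosome 18. The Vil1 sequence is from the RefSeq promoter table of the same build.

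Named peaks are the 5 widest, the 5 highest and 3 lowest in WT per kb, the 12 largest increases and 8 largest decreases among calls whose groups do not overlap, peaks at genes the study names for H3K9me3, and the pairs nearest the width limit. Members, lists and this rule were chosen with earlier results of these data known. Ties in width at the limit were broken by order of chromosome and start. Alternatives were other variance priors, filters, scalings, input subtraction, thresholds, widths, merging of peaks, a replicate block and leaving out each library.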

Additional observations from a re-analysis of the deposited data

Results flagged for a closer look

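The input library of the knockout held 8.35 times the reads of the WT input at the broad peak over Vil1 (1111 against 133 reads, 95% exact interval of the ratio 6.97 to 10.1, counting error only). It was picked out because the inputs lie outside the comparison of KO with WT and this ratio is far above the median of 0.959 over the 286 broad peaks. The next highest ratio was 1.43, at AC151712.4 on chromosome Y (282 against 197 reads). With 1 input library per genotype the ratio has no replicate check. The KO animals carry a transgene with villin sequence, and its part in the result was not tested.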

How the results depend on the processing

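Of 41 calls, 31 held in every fit that left out 1 library (26 increases, 5 decreases) and 8 held in every fit, all increases. Leaving out each library gave 33 to 63 calls, 27 to 36 increases, 6 to 27 decreases, a median log2 fold change of -0.083 to -0.042 and a median WT log2 level per kb of 4.53 to 4.54. Without KO replicate 3 there were 63 calls and 27 decreases, and without KO replicate 2 there were 14 decreases. Without a trend in the variance prior 8 peaks were called, 8 increased and 0 decreased, against 0.236% of all peaks. With the input subtracted 21 were called, 20 increased and 1 decreased, against 29.5% of all peaks, and the median was 0.0041. The error of the single inputs is not in that fit. A minimum log2 fold change of 1 left 14 calls, 14 increased and 0 decreased. At least 5 kb gave 129 calls (88 increased, 41 decreased, of 963, median WT log2 level 4.21), at least 20 kb gave 14 (12 and 2, of 84, level 4.69), and merging peaks less than 1 kb apart gave 65 (50 and 15, of 441). The WT level over input was 1.45. With the input subtracted, log2 fold changes turned positive at Tiam1 (0.0050, 0.13 and 0.021), chr12:20221651 (0.047), chr17:17016451 (0.23), chr4:152972551 (0.41) and chr5:126595801 (0.22). Leaving out each library, the widest Tiam1 peak ran from -0.15 to 0.027 (positive without KO replicate 1) and chr4:152972551 from -0.22 to 0.038 (positive without KO replicate 2). The cause was not tested. Libraries of the same replicate number share only a number, with correlations of their deviations of -0.0013, 0.019 and 0.016, and the replicate block gave 45 calls, 32 increased and 13 decreased. Another centring or quantile normalization gave 40 or 41 calls.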

Other observations

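Several broad peaks lie over clustered or very long genes that the comparisons above did not turn on, named here after their values were seen. In the protocadherin clusters on chromosome 18, which encode neuronal cell adhesion proteins, 4 broad peaks had a protocadherin as closest gene. Another 1, in the locus chr18:37513201-37539300, had no gene within 5 kb and is not counted here. The 4 had 17.4 to 29.2 matched reads per kb in WT and log2 fold changes of -0.11 to 0.06. They had 23.1 CpG per kb, against 10.8 over all broad peaks, and exons made up 60.2% of their bases, against 12.1%. Ttn, the gene of the muscle protein titin, held 2 broad peaks with log2 fold changes of 0.00 and 0.27, neither called (limma adjusted p = 0.99 and 0.30). The 26 broad peaks of the locus on chromosome 4 that includes Ajap1 had a median of 16.4 matched reads per kb in WT and log2 fold changes of -0.41 to 0.08, and none was called. Around Tshz3 on chromosome 7, the gene of a zinc finger homeobox protein, 6 broad peaks had log2 fold changes of -0.16 to 0.06, and none was called.

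Low KO input ratios stood together on chromosome 7, where the peaks at chr7:36412501-36425100 and chr7:36325651-36336600 had ratios of 0.582 and 0.638, while chr7:36911251-36923850 in the neighbouring locus had 1.34. At Lcorl on chromosome 5 the ratio was 0.575 (0.421 to 0.780), with a log2 fold change of -0.31.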
